A study of Mus musculus with 30 samples.

Results

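The genes described here are 8 chemokine genes and 1 chemokine receptor gene of the mouse: Cxcl9, Cxcl10, Ccl5, Ccl12, Ccl2, Cxcl16, Cx3cl1, Cxcl12 and Cxcr4. They were taken by gene symbol from a table of read counts that lists 51752 genes, and all 9 symbols were found once. In GRCm38 Cxcl9 (chr5:92321347-92328079) and Cxcl10 (chr5:92346638-92348889) lie close together on the minus strand, and Ccl2 (chr11:82035571-82037453) and Ccl12 (chr11:82101845-82103400) on the plus strand. Ccl5 (chr11:83525778-83530518) and Cxcl16 (chr11:70453983-70459984) are on the minus strand of the same chromosome as Ccl2, and Cxcr4 (chr1:128588199-128592293) is also on the minus strand. Cx3cl1 (chr8:94772009-94782427) and Cxcl12 (chr6:117168535-117181367) are on the plus strand. RNA was sequenced from 30 libraries of 15 mice, 1 whole-forebrain library and 1 library of CD11b-isolated cells from each animal. CD11b is a surface protein of microglia and other myeloid cells, and the isolation used it to enrich microglia from the hemisphere that was not used whole. The study removes IL-34, a secreted protein that sustains microglia through the Csf1r receptor. In the genotype experiment 3 Il34 knockout animals (KO, 1 male and 2 females) were set against 4 Il34 heterozygous animals (Het, 2 males and 2 females), so the controls carry 1 disrupted copy of Il34. In the antibody experiment 4 wild-type animals given a blocking antibody against IL-34 (anti-IL34, 3 males and 1 female) were set against 4 given a control antibody (anti-gp120, 2 males and 2 females). All animals were perfused with saline, and the numbers that name animals are unique only within an experiment. Age, dose and schedule are not given in the sources used here. Within a tissue each library is from a separate animal, so the spread within an arm is a spread between animals.

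Chemokines are small secreted or membrane-tethered proteins that guide cells through receptors coupled to G proteins. Cxcl9 and Cxcl10 act on Cxcr3, are induced by interferons and draw T and NK cells. Ccl5 draws T cells and monocytes, while Ccl2 and Ccl12 act on Ccr2 and draw monocytes. Cx3cl1 (fractalkine) is made by neurons and tethered to their membrane, and its receptor Cx3cr1 marks microglia. Cxcl16 is also membrane-tethered and acts on Cxcr6, and the proteases Adam10 and Adam17 shed both tethered ligands. Cxcl12 acts on Cxcr4 and Ackr3 and is made in the brain by vascular, meningeal and neural cells.

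The sequence upstream of the start site is printed for Cxcl10 and Cxcl9, the members that passed the test in the antibody experiment, and for Ccl12, which stood beside them without passing. The RefSeq table of promoters used here (build GRCm38.p6) held entries for 6 of the 9 members, and Ccl2, Ccl5 and Cxcl16 had none in it. Each line gives the 250 bases before the start site, 5′ to 3′ in the direction of the gene. Capitals mark matches to 3 motifs searched on both strands: the interferon-stimulated response element as GAAA, any 2 bases and GAAA, the gamma-activated site as TTCNNNGAA and the NF-kB site as GGG, any 3 bases, T, any 1 base and CC.
Cxcl10, chr5:92348890-92349139, minus strand: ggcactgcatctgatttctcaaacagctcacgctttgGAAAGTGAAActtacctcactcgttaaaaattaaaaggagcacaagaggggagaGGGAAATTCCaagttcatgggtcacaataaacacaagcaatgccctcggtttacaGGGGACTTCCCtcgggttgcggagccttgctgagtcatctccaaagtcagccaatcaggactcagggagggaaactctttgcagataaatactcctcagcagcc
Cxcl9, chr5:92328080-92328329, minus strand: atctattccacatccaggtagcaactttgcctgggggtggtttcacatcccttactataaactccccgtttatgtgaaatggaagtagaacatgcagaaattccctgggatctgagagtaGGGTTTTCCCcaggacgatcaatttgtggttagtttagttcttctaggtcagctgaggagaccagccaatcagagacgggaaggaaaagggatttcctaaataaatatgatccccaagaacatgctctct
Ccl12, chr11:82101595-82101844, plus strand: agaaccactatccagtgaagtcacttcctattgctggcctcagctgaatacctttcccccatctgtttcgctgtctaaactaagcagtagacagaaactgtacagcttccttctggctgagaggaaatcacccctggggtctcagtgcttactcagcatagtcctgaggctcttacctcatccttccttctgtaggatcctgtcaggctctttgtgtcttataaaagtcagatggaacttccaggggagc

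In the Cxcl10 sequence the response element GAAAGTGAAA lies at positions -213 to -204 from the start site. An NF-kB match GGGAAATTCC follows at -159 to -150, and the run GGGGACTTCCC holds 2 overlapping matches at -104 to -95 and -103 to -94, the last of them on both strands. The Cxcl9 sequence holds 1 NF-kB match, GGGTTTTCCC, at -130 to -121. None of the 3 motifs was found in these windows of Ccl12, Cx3cl1, Cxcl12 or Cxcr4. Over the windows of 32851 RefSeq promoters, 2.98% held the response element, 7.02% the gamma-activated site and 14.9% the NF-kB letters. These matches describe letters and not binding.

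Total counts ran from 15.1 to 75.2 M per library. Levels below are counts per 1 M counts (CPM), scaled by TMM over the 15 libraries of a tissue. In forebrain the Il34 gene itself had 21.4 ± 2.37 CPM in the 4 Het libraries and 7.72 ± 0.991 CPM in the 3 KO libraries (mean ± SD), and every KO library was below every Het library. Its log2 fold change was -1.502 (SE 0.105, Benjamini-Hochberg p 1.01e-05 by edgeR). In the isolates Il34 ran from 4.89 to 9.82 CPM in Het and from 5.15 to 6.67 CPM in KO, and its log2 fold change of -0.27 did not pass (SE 0.270, Benjamini-Hochberg p 0.493 by edgeR), so the deletion was checked in forebrain alone. The isolates were checked against microglia markers: 7 of 8 listed markers were in the table, and their summed level in Het was 8516 to 15574 CPM in isolates and 194 to 221 CPM in forebrain. RNA of other cells was also in the isolates. Summed astrocyte markers (6 genes) ran from 2915 to 10251 CPM in Het, 11659 to 14334 in KO, 4271 to 16908 in anti-gp120 and 9137 to 16908 in anti-IL34 isolates. Summed microglia markers in the isolates fell in a range of 3241 to 3635 CPM in KO, 11122 to 14708 in anti-gp120 and 4539 to 7062 in anti-IL34. Fewer cells of a type and less RNA per cell cannot be told apart in such libraries.

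In control animals most of these ligands were higher in the isolated cells than in whole forebrain, and the fractalkine gene Cx3cl1 was lower. Of the 9 genes, 7 were higher and 1 was lower in isolates than in forebrain of the 8 control animals (4 Het, 4 anti-gp120). The background is wide: 83.5% of the 19952 genes tested passed in this contrast, 40.5% higher and 43.0% lower. A count of 8 in 9 is near that share. The size of the differences carries more than the count, since the median log2 fold change was 6.28 over the 9 members and -0.05 over all genes tested.

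Ccl2, the monocyte chemoattractant, had 0 to 4 counts in each control forebrain library, 14 counts in all 8. In the isolates of the same animals it ran from 21.7 to 53.3 CPM with a median of 37.8. The log2 fold change was 9.85 (SE 0.265, Benjamini-Hochberg p 2.09e-14 by edgeR). Ccl5 had 4 counts over the 8 forebrain libraries, 5 of which had none, and 0.981 to 2.48 CPM in the isolates. Its fitted log2 fold change of 7.04 (SE 0.436) therefore rests on those 4 counts. Cxcl9 was the least abundant in the isolates, at 0.115 to 0.842 CPM, and had 11 counts in all in control forebrain (log2 fold change 4.11, SE 0.537).

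The membrane-tethered ligand Cxcl16 ran from 0.526 to 1.21 CPM in control forebrain and from 33.2 to 141 CPM in the isolates (log2 fold change 6.82, SE 0.256). Cxcl10 ran from 0.0554 to 0.689 CPM in forebrain and from 7.90 to 34.6 CPM in isolates (6.34, SE 0.390). Ccl12 ran from 0.112 to 0.460 and from 11.1 to 34.8 CPM (6.28, SE 0.291). Cxcr4, the receptor of Cxcl12, ran from 1.71 to 3.22 and from 24.1 to 52.5 CPM (4.07, SE 0.169). For each of these 4 genes the lowest isolate was above the highest forebrain library.

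Cx3cl1 had 484 to 653 CPM in control forebrain and 20.6 to 44.9 CPM in the isolates, a log2 difference of -4.03 (SE 0.159, Benjamini-Hochberg p 1.05e-12 by edgeR). Cxcl12 ran from 63.2 to 92.1 CPM in forebrain and from 34.2 to 91.8 CPM in isolates, and the ranges overlapped. Its difference of -0.32 on the log2 scale (SE 0.162) did not pass (Benjamini-Hochberg p 0.0780 by edgeR), and it passed without anti-gp120 animal 15 or Het animal 20, with the lowest Benjamini-Hochberg p of 0.0125 by edgeR. This test held no term for the animal, so it took the 2 libraries of an animal as separate. With a replicate block for the animal the same 8 genes passed. Tissue and isolation procedure cannot be told apart in this contrast.

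**Figure D1:**
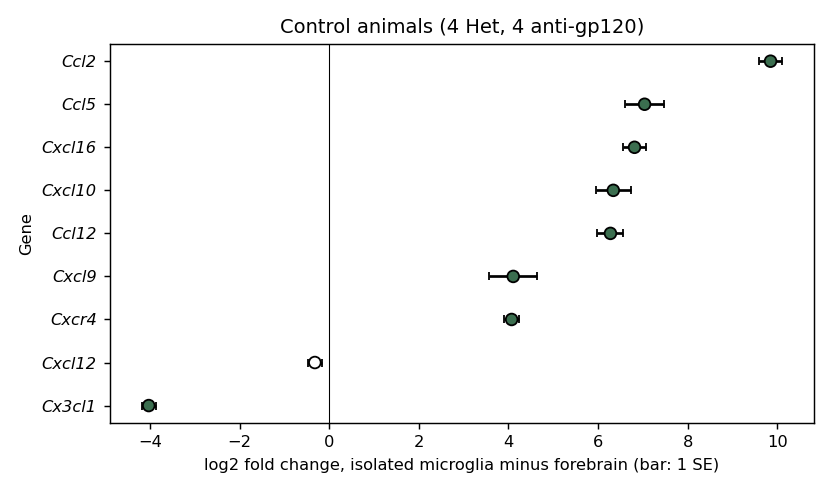
Log2 fold change of isolated microglia minus whole forebrain (x axis) for each gene (y axis) in the 8 control animals, with bars of 1 SE; filled points passed an adjusted p of 0.05. Ccl2 is highest at 9.85, Cx3cl1 is lowest at -4.03, the only negative value that passed, and Cxcl12 is the open point at -0.32.

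Related genes were also mostly higher in the isolates. Of 20 other chemokine ligands tested, 14 were higher and 3 lower, with Ccl4 (log2 fold change 12.37), Ccl9 (5.67), Pf4 (5.63), Ccl6 (5.54) and Ccl3 (11.09) the 5 of smallest p. Among the receptors of these ligands Cx3cr1 (5.57), Cxcr3 (4.90), Ccr2 (4.74), Cxcr6 (2.51) and Ackr3 (2.02) were all higher, and of 17 other receptors tested 14 were higher and 2 lower. Ccr1 (5.97) and Ccrl2 (7.45) were, with Cx3cr1 and Ackr3, among the receptors of smallest p. All 16 interferon regulators tested were higher, led by Ifngr1 (4.32), Irf5 (6.15), Ifnar2 (2.79), Irf1 (5.13) and Irf3 (1.59). All 14 interferon-stimulated comparison genes tested were higher, led by Psmb8 (4.49), Bst2 (3.98), Rsad2 (3.81), Irgm1 (2.67) and Mx1 (3.78). The 10 NF-kB inducible genes were higher too, led by Tnfaip3 (6.59), Il1a (8.58), Icam1 (7.06), Birc3 (5.34) and Nfkbia (4.36), as were the sheddase genes Adam17 (2.89) and Adam10 (1.46). Each of these values passed edgeR's quasi-likelihood test.

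Levels of different genes were set side by side as the authors' TPM (transcripts per 1 M), which divide counts by gene length with introns. In Het forebrain the order was Cx3cl1 at 1450 ± 118 TPM, Cxcl12 at 146 ± 13.9, Cxcr4 at 15.4 ± 3.35, Ccl12 at 3.88 ± 2.01, Cxcl16 at 2.61 ± 0.301, Cxcl10 at 1.65 ± 1.00, Ccl2 at 0.555 ± 0.309, Cxcl9 at 0.0737 ± 0.0114 and Ccl5 at 0.0471 ± 0.0548 TPM (SD, n = 4). Ranges of 1 SD overlapped between Ccl12 and Cxcl16, Cxcl16 and Cxcl10, Cxcl10 and Ccl2, and Cxcl9 and Ccl5. In Het isolates the order was Ccl2 at 360 ± 59.8 TPM, Ccl12 at 249 ± 60.8, Cxcl16 at 204 ± 64.2, Cxcr4 at 179 ± 36.8, Cxcl10 at 160 ± 82.5, Cxcl12 at 89.8 ± 42.4, Cx3cl1 at 66.7 ± 25.8, Ccl5 at 7.52 ± 2.74 and Cxcl9 at 1.67 ± 0.850 TPM (SD, n = 4). There the SD ranges of neighbours overlapped from Ccl2 down to Cx3cl1, so only Ccl5 and Cxcl9 stood clear. Per exon length instead, Ccl12 came first in Het isolates at 36.4 ± 10.7 RPKM (CPM per kilobase of exon, SD, n = 4), with Ccl2 second and within that SD. In anti-IL34 isolates Cxcl10 held the first place at 735 ± 274 TPM, with Ccl12 next at 587 ± 242 TPM, whereas in anti-gp120 isolates Cxcl10 was the fifth at 178 ± 48.7 TPM (SD, n = 4 each). Per exon length Ccl12 was first in both antibody arms.

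The antibody experiment asks what blocking IL-34 in wild-type animals does to these genes. In the isolates the interferon-inducible ligands Cxcl9, Cxcl10 and Ccl5 were higher in every anti-IL34 animal than in any anti-gp120 animal, with fitted folds between the arms of 3.55 to 9.03. Only Cxcl9 passed the threshold. The other 2 lay just beyond it, and the 6 remaining genes did not pass.

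Cxcl9 stood at 0.569, 0.787, 0.308 and 0.126 CPM in anti-gp120 isolates (animals 1, 15, 7 and 8), from 2 to 28 counts. It stood at 2.17, 4.24, 4.85 and 6.29 CPM in anti-IL34 isolates (animals 10, 11, 2 and 24), from 92 to 212 counts. The lowest anti-IL34 isolate was thus above the highest anti-gp120 isolate. The log2 fold change was 3.17, or 9.03-fold (SE 0.520, Benjamini-Hochberg p 0.0488 by edgeR). Leaving out 1 animal at a time, it passed in 1 of 8 fits, that without anti-gp120 animal 15, where 6905 of 17071 genes passed. Its adjusted edgeR p ran up to 0.225 (Benjamini-Hochberg). Its log2 fold change stayed between 2.96 and 3.49 in those 8 fits.

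Cxcl10 stood at 30.3, 16.8, 16.7 and 24.5 CPM in the anti-gp120 isolates (animals 1, 15, 7 and 8) and at 49.9, 59.9, 118 and 105 CPM in the anti-IL34 isolates (animals 10, 11, 2 and 24). Animals 2 and 24 had the highest levels, and the arms did not overlap. The log2 fold change was 1.83, or 3.55-fold (SE 0.330, Benjamini-Hochberg p 0.0554 by edgeR). In the annotation Cxcl10 lies inside the span of Art3, a gene on the other strand, and strand use in counting is not given in the sources used here. Art3 differed by 0.67 in the same isolates (SE 0.168, Benjamini-Hochberg p 0.0882 by edgeR).

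Ccl5 stood at 2.48, 1.28, 1.11 and 1.45 CPM in anti-gp120 and at 3.87, 6.58, 8.75 and 7.31 CPM in anti-IL34 isolates, in the same order of animals. The arms did not overlap, and the log2 fold change was 2.01, or 4.04-fold (SE 0.344, Benjamini-Hochberg p 0.0515 by edgeR). Cxcl9, Cxcl10 and Ccl5 all passed in 4 other settings: DESeq2 (where 11.5% of all genes passed), no filter on low counts (2.75%), no sex terms (5.59%), and 1 fit over the 15 libraries of the tissue (5.27%). Without anti-gp120 animal 15, where 6905 of 17071 genes tested passed, they passed together with Cx3cl1. Cx3cl1 also passed without anti-IL34 animal 11, where 514 of 17001 genes did. The isolate of anti-gp120 animal 15 had the highest summed astrocyte level of its arm, 16908 CPM beside 4271 to 8440 in the other 3, and the part of this in the result was not tested.

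For context, 110 of 17570 genes (0.626%) passed in this comparison, and 0.0228% passed as higher, which is 4 genes. Arms without overlap and with anti-IL34 higher were found for 3.83% of the genes tested, beside 3 of the 9 members. The number of genes that passed ran from 0 to 6905 over the fits that left out 1 animal, the highest being without anti-gp120 animal 15.

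Ccl12, a ligand of Ccr2, stood at 34.8, 14.6, 15.8 and 23.3 CPM in anti-gp120 and at 23.9, 34.6, 68.4 and 56.9 CPM in anti-IL34 isolates (animals in the order above). Anti-IL34 animals 2 and 24 were above all controls, while animals 10 and 11 lay within the control range. Its log2 fold change of 0.96 (SE 0.381) did not pass (Benjamini-Hochberg p 0.177 by edgeR). Ccl2, which shares that receptor, had a lower mean without passing, at 53.3, 40.7, 26.5 and 41.2 CPM in anti-gp120 and 21.7, 34.9, 27.99 and 31.4 CPM in anti-IL34 isolates. The arms of Ccl2 overlapped, and its log2 fold change was -0.41 (SE 0.228, Benjamini-Hochberg p 0.254 by edgeR). Ccl2 lies inside the span of Gm17268 on the other strand, and Cxcl16 overlaps the edge of Zmynd15, which differed by 0.29 (SE 0.331, Benjamini-Hochberg p 0.564 by edgeR).

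Cx3cl1 stood at 27.3, 44.9, 34.9 and 37.3 CPM in anti-gp120 isolates (animals 1, 15, 7 and 8) and at 58.5, 43.0, 50.6 and 56.5 CPM in anti-IL34 isolates (animals 10, 11, 2 and 24). Anti-gp120 animal 15 was the only control above an anti-IL34 animal. The log2 fold change of 0.59 (SE 0.182, Benjamini-Hochberg p 0.128 by edgeR) did not pass, and DESeq2 gave 0.58 with an adjusted p of 0.0378. Summed neuron markers (7 genes) ran from 222 to 658 CPM in anti-gp120 and from 486 to 839 CPM in anti-IL34 isolates, and their part in this difference was not tested. Cxcl16, Cxcl12 and Cxcr4 had overlapping arms, with log2 fold changes of -0.21 (SE 0.304), 0.46 (SE 0.320) and -0.07 (SE 0.156), and adjusted edgeR p-values of 0.650, 0.348 and 0.760 (Benjamini-Hochberg). Their levels ran from 59.1 to 141 CPM against 73.5 to 128 for Cxcl16, from 46.3 to 91.8 against 55.1 to 128 for Cxcl12, and from 37.4 to 52.5 against 35.5 to 46.7 for Cxcr4.

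**Figure D2:**
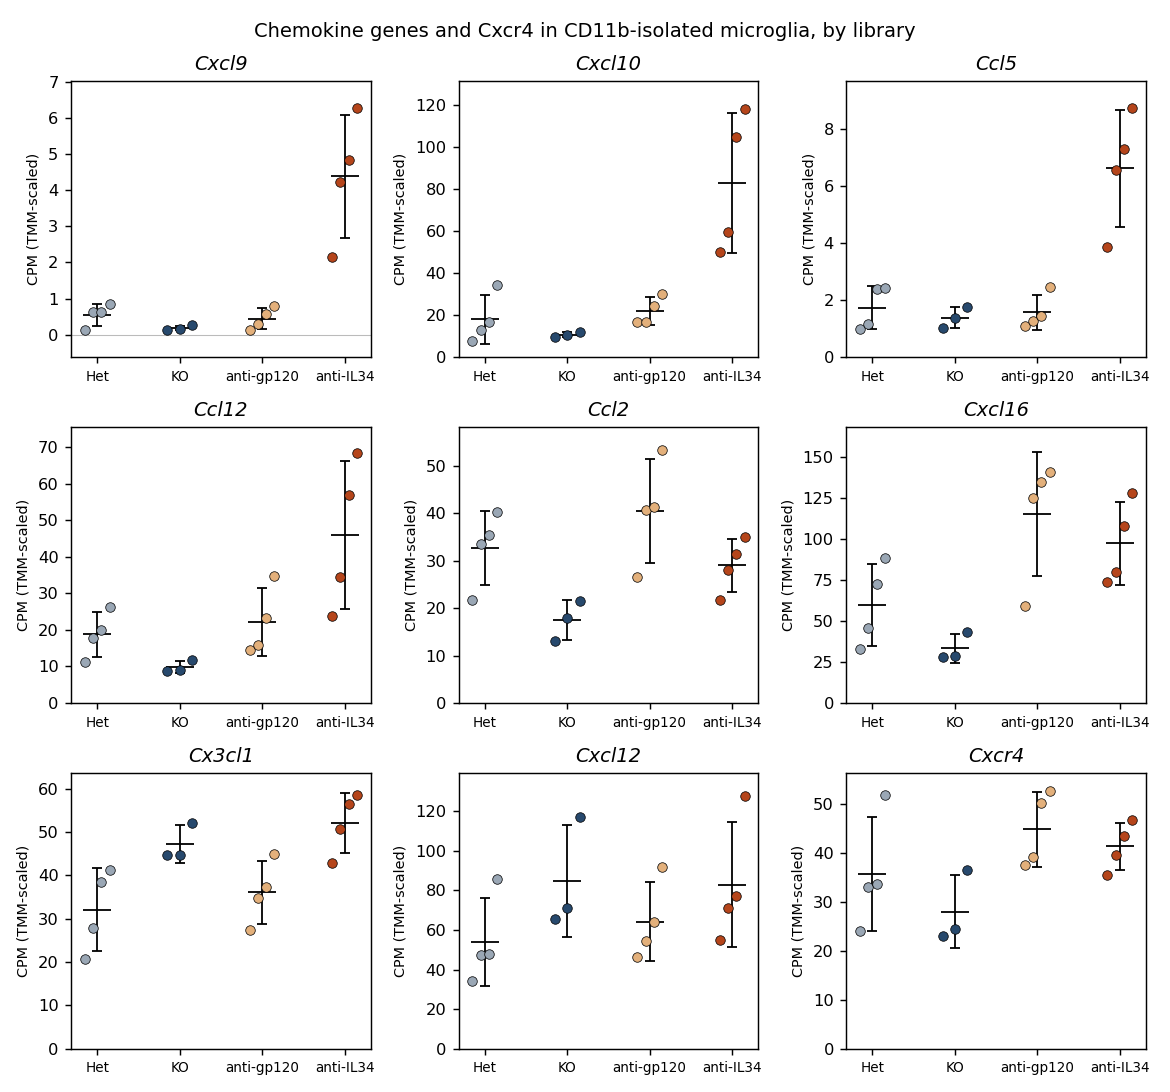
CPM (y axis, linear and starting at 0 or just below it) of each gene in every CD11b-isolated library, by arm (x axis: 4 Het, 3 KO, 4 anti-gp120, 4 anti-IL34). Each point is 1 animal, the dash is the mean and the bar 1 SD. In the Cxcl9, Cxcl10 and Ccl5 panels all 4 anti-IL34 points lie above all other points, while in the Ccl2 and Cxcl16 panels they lie within the anti-gp120 range or below it.

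Markers of blood cells and of other cells in these isolates were as follows. The summed monocyte and neutrophil markers (8 genes, none at 0 in either arm) ran from 48.9 to 313 CPM in anti-gp120 and from 158 to 480 CPM in anti-IL34. The summed T and NK cell markers (12 genes) ran from 4.94 to 8.45 CPM in anti-gp120, with Cd8a at 0 in all 4 libraries, and from 5.69 to 7.66 CPM in anti-IL34. Only 3 of these 12 genes passed the expression filter here. In control animals 1 of 3 tested was higher and 2 were lower in isolates than in forebrain. Choroid plexus markers (6 genes) ran from 5.37 to 8.70 CPM and from 6.85 to 2101 CPM. Border macrophage markers (6 genes) ran from 527 to 983 CPM in anti-gp120 and from 371 to 524 CPM in anti-IL34, without overlap. The part of these markers in the chemokine differences was not tested.

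In whole forebrain the antibody raised Cxcl10. It stood at 0.689, 0.0601, 0.501 and 0.131 CPM in anti-gp120 animals 1, 15, 7 and 8 (1 to 52 counts) and at 1.47, 1.504, 5.07 and 3.03 CPM in anti-IL34 animals 10, 11, 2 and 24 (29 to 78 counts). Every anti-IL34 library was above every anti-gp120 library. The log2 fold change was 2.55, or 5.84-fold (SE 0.430, Benjamini-Hochberg p 0.0205 by edgeR). It was among 33 genes (0.192% of 17143 tested) that passed as higher and 123 (0.717%) that passed at all, and arms without overlap and higher were found for 1.20%. Leaving out 1 animal at a time, Cxcl10 passed in 3 of 8 fits, those without anti-IL34 animal 10, anti-IL34 animal 2 or anti-gp120 animal 15. The highest adjusted edgeR p in these fits was 0.150 (Benjamini-Hochberg), without anti-IL34 animal 11, at a log2 fold change of 2.33. Art3, whose span holds Cxcl10, differed by -0.13 in forebrain (Benjamini-Hochberg p 0.999 by edgeR).

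Cxcl9, Ccl5, Ccl12 and Ccl2 had too few forebrain counts for the filter of the main test. Cxcl9 had 1, 0, 6 and 0 counts in anti-gp120 animals 1, 15, 7 and 8, and 5, 3, 8 and 3 counts in anti-IL34 animals 10, 11, 2 and 24. That is 0 to 0.111 CPM against 0.119 to 0.520 CPM. In the 2 control libraries at 0, the 3 counts that a count of 0 allows would be 0.181 and 0.194 CPM, above 3 of the 4 anti-IL34 values, so the arms were not shown to be apart. Ccl5 had 0 counts in 3 anti-gp120 libraries and 2 in the fourth, against 0, 3, 3 and 7 counts in anti-IL34 animals 10, 11, 2 and 24. Ccl2 had between 0 and 6 counts in each of the 8 libraries. Ccl12 had 0.358, 0.120, 0.316 and 0.460 CPM in anti-gp120 and 0.404, 0.519, 2.01 and 0.964 CPM in anti-IL34 forebrain, in the same order of animals. Anti-IL34 animals 11, 2 and 24 were above all controls and animal 10 was not. With no filter on low counts, where 1.15% of all genes passed, Ccl12 passed with a log2 difference of 1.42 (SE 0.376, Benjamini-Hochberg p 0.0169 by edgeR). In the fit over the 15 forebrain libraries it was 1.46 (Benjamini-Hochberg p 0.390 by edgeR).

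The 4 other members tested in forebrain did not pass, all at an Benjamini-Hochberg p of 0.999 by edgeR. Cx3cl1 was nearly level, at 484 to 653 CPM with anti-gp120 and 526 to 649 CPM with anti-IL34 (log2 fold change -0.02, SE 0.101). Cxcl12 ran from 74.8 to 92.1 and from 69.7 to 87.8 CPM (-0.16, SE 0.092), and Cxcl16 from 0.854 to 1.21 and from 0.950 to 1.23 CPM (0.02, SE 0.227). Cxcr4 stood at 2.89, 1.74, 2.62 and 3.22 CPM in anti-gp120 animals 1, 15, 7 and 8 and at 1.52, 1.40, 3.31 and 1.29 CPM in anti-IL34 animals 10, 11, 2 and 24. Animal 2 was the highest of all 8, and the other 3 anti-IL34 animals were below every control (log2 fold change -0.60, SE 0.296).

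**Figure D3:**
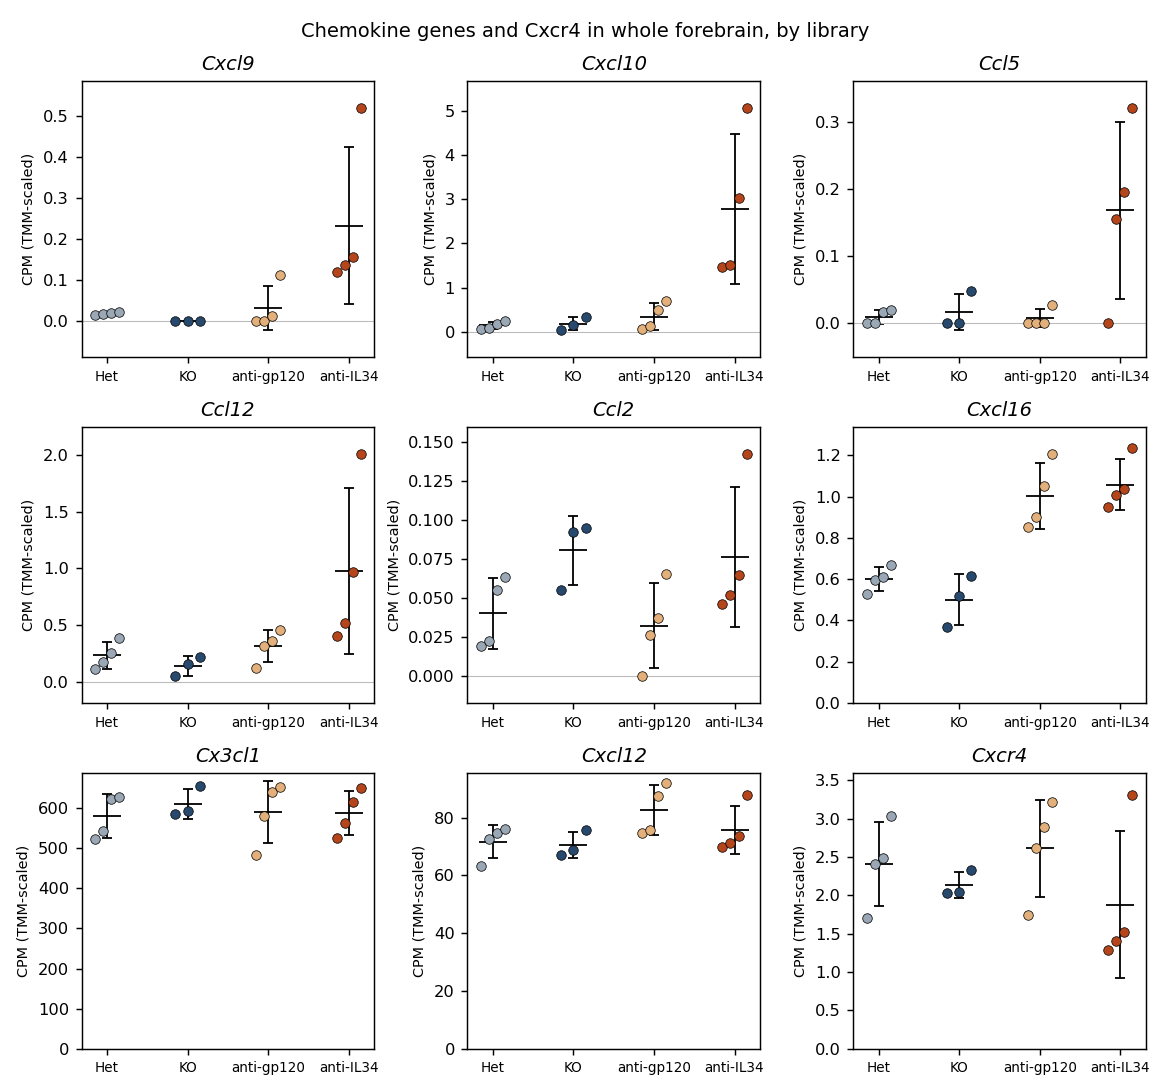
CPM (y axis, linear) of each gene in every whole-forebrain library, by arm (x axis: 4 Het, 3 KO, 4 anti-gp120, 4 anti-IL34), with the mean as a dash and 1 SD as a bar; scales differ between panels. All 4 anti-IL34 points of Cxcl10 lie at 1.47 CPM or higher and all other points at 0.689 CPM or lower, while Cx3cl1 lies between 484 and 654 CPM in all 4 arms.

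Among the receptors, Cx3cr1 fell in both tissues with the antibody. In forebrain it stood at 55.4 ± 6.24 CPM with anti-gp120 and 21.8 ± 3.75 CPM with anti-IL34 (SD, n = 4 each), a log2 difference of -1.41 (SE 0.117, Benjamini-Hochberg p 0.000248 by edgeR). In the isolates it stood at 2033 ± 231 and 885 ± 141 CPM (SD, n = 4 each), a change of -1.16 (SE 0.184, Benjamini-Hochberg p 0.0442 by edgeR). Cx3cl1, its ligand, did not pass in either tissue. Ccr2 (-0.60 in forebrain, -0.10 in isolates), Ackr3 (-0.06 and -0.18) and Cxcr3 (-0.07, tested in isolates alone) did not pass. Cxcr3, the receptor of Cxcl9 and Cxcl10, had 0 to 3 counts in each forebrain library of this experiment and 0.264 to 1.04 CPM in its isolates.

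Interferon-stimulated genes other than the chemokines also rose in forebrain. There 9 of 14 comparison genes tested rose (median log2 fold change 1.92, against 0.00 over all genes tested), and Oasl2 (2.95), Bst2 (1.89), Ifi44 (2.32), Gbp3 (1.38) and Rsad2 (2.31) had the smallest p. Among the interferon regulators Irf7 (2.17), Usp18 (2.26) and Irf9 (0.86) rose. In the isolates 0 of 14 comparison genes and 0 of 16 regulators passed with edgeR, while 12 and 9 had an unadjusted p under 0.05, as did 25.9% of all genes tested. DESeq2 called 11 of the 14 as higher, and 3 of the 16 as higher and 2 as lower, and it called 11.5% of all genes. In forebrain the shares of all genes were 4.86% at an unadjusted edgeR p under 0.05 and 1.15% with DESeq2. In isolates the median of the 14 was 2.05, against 0.06 over all genes tested, with Ifi44 at 2.42 (Benjamini-Hochberg p 0.0554 by edgeR) and Irf7 at 2.38 (Benjamini-Hochberg p 0.0691 by edgeR). With edgeR 0 of 6 other chemokine ligands passed in forebrain and 0 of 18 in isolates (2 and 4 at an unadjusted p under 0.05), and DESeq2 called Ccl9 in forebrain and Ccl9, Ccl24 and Cxcl11 in isolates. NF-kB inducible genes gave 0 of 7 and 0 of 10 with both tools (1 and 0 at an unadjusted edgeR p under 0.05). The 2 sheddase genes did not pass with edgeR in either tissue (0 and 2 at an unadjusted p under 0.05), and DESeq2 called both in isolates. The median of the NF-kB genes was 0.07 in forebrain and -0.28 in isolates. These lists were chosen with earlier results of these data known.

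In forebrain the summed T and NK cell markers ran from 10.7 to 18.4 CPM with anti-gp120 (Nkg7 at 0) and from 8.97 to 16.7 CPM with anti-IL34 (Klrb1c and Ncr1 at 0). Only 3 of these 12 genes passed the filter there. Monocyte and neutrophil markers ran from 2.35 to 5.86 and from 3.26 to 6.69 CPM, and microglia markers from 321 to 393 and from 149 to 186 CPM. Their part in the forebrain result was not tested.

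The genotype experiment asks the same of animals without Il34. In isolates 0 of the 9 members passed with edgeR, where 976 of 18185 genes (5.37%) did. DESeq2 called 2 members, Ccl2 and Ccl12, and 21.4% of all genes. At an unadjusted edgeR p under 0.05 there were 4 members, Cxcl9, Ccl12, Ccl2 and Cxcl16, all with values below 0 for KO against Het, and 32.6% of all genes. A count of 2 in 9 is near the DESeq2 share. The values of Cxcl9, Cxcl10, Ccl5 and Ccl12 were all below 0 here and above 0 with the antibody.

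Ccl2 stood at 21.7, 33.4, 40.2 and 35.4 CPM in Het isolates (animals 1, 20, 21 and 23) and at 13.04, 21.5 and 17.8 CPM in KO isolates (animals 24, 3 and 6). The arms did not overlap, though Het animal 1 and KO animal 3 nearly touched, and 19.4% of the genes tested were lower without overlap. Its log2 fold change was -0.89 (SE 0.259, Benjamini-Hochberg p 0.0952 by edgeR). Ccl12 stood at 11.1, 20.0, 26.3 and 17.7 CPM in Het and at 9.04, 8.89 and 11.9 CPM in KO isolates, in the same order. Only Het animal 1 lay within the KO range, and the log2 fold change was -0.93 (SE 0.289, Benjamini-Hochberg p 0.105 by edgeR). DESeq2 and the fit without a filter (6.78% of all genes) called both Ccl2 and Ccl12, and the fit over 15 libraries called Ccl2 alone, where 14.6% of all genes passed.

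Cxcl9 stood at 0.115, 0.617, 0.842 and 0.636 CPM in Het isolates (2 to 26 counts) and at 0.135, 0.165 and 0.254 CPM in KO isolates (3 to 11 counts). Het animal 1 was below all KO animals and the other 3 Het animals above them (log2 fold change -1.597, SE 0.599, Benjamini-Hochberg p 0.133 by edgeR). Cxcl16 stood at 33.2, 45.5, 88.3 and 72.5 CPM in Het and at 43.2, 27.99 and 28.7 CPM in KO isolates (-0.86, SE 0.363, Benjamini-Hochberg p 0.153 by edgeR). The arms of Cxcl16 overlapped through Het animal 1 and KO animal 24. Without Het animal 1 all 4 of these genes passed, as did 5756 of the 18294 genes tested. It was the only 1 of 7 such fits in which any member passed (Cxcl9 was above the filter in 4 of the 7). The adjusted edgeR p-values were 0.0159 for Ccl2, 0.0206 for Ccl12, 0.0247 for Cxcl9 and 0.0435 for Cxcl16 (Benjamini-Hochberg). The isolate of Het animal 1 had the highest summed astrocyte level among Het, 10251 CPM, and the lowest summed microglia level, 8516 CPM. The part of this in the result was not tested. The number of genes that passed at all was 0 in 5 of those 7 fits and 5756 without Het animal 1.

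Cxcl10 stood at 7.90, 12.7, 34.6 and 16.9 CPM in Het and at 10.7, 9.74 and 11.9 CPM in KO isolates (-0.67, SE 0.468, Benjamini-Hochberg p 0.335 by edgeR). Het animal 21 was high, and the KO animals lay within the Het range. Ccl5 (0.981 to 2.42 CPM in Het, 1.02 to 1.75 in KO) and Cxcr4 (24.1 to 51.9 and 22.9 to 36.5 CPM) had overlapping arms and a log2 difference of -0.36 each. Cx3cl1 stood at 38.5, 41.2, 20.6 and 27.9 CPM in Het and 44.7, 52.2 and 44.6 CPM in KO isolates, so that each KO isolate was above each Het isolate. Its log2 fold change was 0.56 (SE 0.267, Benjamini-Hochberg p 0.187 by edgeR), and 19.3% of the genes tested were higher without overlap. Cxcl12 (34.2 to 85.9 CPM in Het, 65.7 to 117 in KO) had a value of 0.60 (SE 0.344, Benjamini-Hochberg p 0.250 by edgeR). Summed neuron markers in these isolates ran from 134 to 470 CPM in Het and from 443 to 701 CPM in KO, and their part was not tested.

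In forebrain of this experiment 5 members were tested and 0 passed, where 120 of 19343 genes (0.620%) did. At an unadjusted p under 0.05 edgeR also gave 0 of the 5 (7.45% of all genes), and DESeq2 called 0 (0.920% of all genes). Ccl12 stood at 0.255, 0.388, 0.112 and 0.172 CPM in Het (animals 1, 20, 21 and 23) and at 0.0473, 0.153 and 0.221 CPM in KO (animals 24, 3 and 6), with overlapping arms (log2 fold change -0.61, SE 0.537). Cxcl16 (-0.28), Cx3cl1 (0.07), Cxcl12 (-0.03) and Cxcr4 (-0.12) had adjusted edgeR p-values from 0.862 to 0.939 (Benjamini-Hochberg). Cx3cl1 ran from 522 to 629 CPM in Het and from 586 to 654 CPM in KO. Cxcl10 was below the filter, at 3 to 16 counts in Het and 1 to 11 counts in KO. Cxcl9 had 1 count in each Het library and 0 counts in each KO library, where 3 counts, the most that a count of 0 allows, would be 0.0557 to 0.141 CPM. Both arms are at or below that floor, and no fold is given. Ccl5 had 0 or 1 count in each library and Ccl2 1 to 4.

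Cx3cr1 was lower with the deletion as well. It fell by 1.37 on the log2 scale in forebrain (SE 0.064, Benjamini-Hochberg p 2.74e-07 by edgeR) and had a change of -1.596 in isolates (SE 0.247, Benjamini-Hochberg p 0.0206 by edgeR). Summed microglia markers (7 genes) in forebrain ran from 194 to 221 CPM in Het and from 87.9 to 105 CPM in KO. Their part in the Cx3cr1 difference was not tested. Ccr2 (-0.22 in forebrain, -0.32 in isolates), Ackr3 (0.00 and 0.12) and Cxcr3 (-0.15 in isolates) did not pass. Ifngr1, a chain of the interferon-gamma receptor, fell by 1.29 in isolates (SE 0.166, Benjamini-Hochberg p 0.0146 by edgeR). With edgeR it was the only 1 of 16 regulators to pass there, while 10 had an unadjusted p under 0.05 and DESeq2 called 8, all lower: Ifnar2, Ifngr1, Ifngr2, Irf1, Irf3, Irf5, Irf9 and Tyk2. The median of the 16 was -0.66. The sheddase gene Adam17 fell by 0.76 in isolates (SE 0.165, Benjamini-Hochberg p 0.04999 by edgeR). With edgeR 0 other ligands, 0 interferon-stimulated comparison genes and 0 NF-kB inducible genes passed in either tissue. At an unadjusted p under 0.05 there were 6 of 19, 3 of 14 and 5 of 10 of these in isolates, where 32.6% of all genes had such a p, and 2 of each list in forebrain, where 7.45% had. DESeq2 called 4 ligands, 3 comparison genes and 4 NF-kB genes in isolates, beside 21.4% of all genes, and 0 of each in forebrain. The medians of the 14 comparison genes were -0.13 in forebrain and -0.47 in isolates, and that of the 10 NF-kB genes in isolates was -0.79, against 0.02 over all genes tested.

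**Figure D4:**
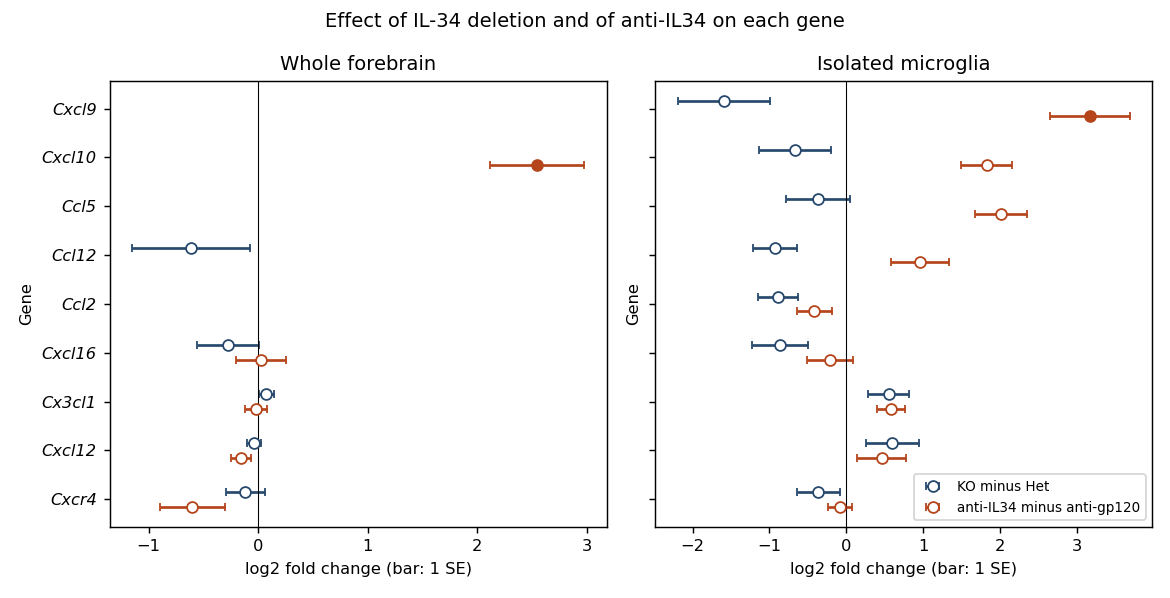
Log2 fold change with 1 SE (x axis) of each gene (y axis) for KO minus Het (blue) and anti-IL34 minus anti-gp120 (orange), in whole forebrain and in isolated microglia; filled points passed an adjusted p of 0.05, and genes below the filter have no point. In the isolates Cxcl9, Cxcl10, Ccl5 and Ccl12 lie on opposite sides of 0 for deletion and antibody, Cx3cl1 and Cxcl12 lie above 0 for both, and Ccl2 and Cxcl16 lie below 0 for both.

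Whether deletion and antibody differed was tested as the difference of the 2 effects over the 15 libraries of a tissue. In isolates 0 of 18732 genes passed (0%), and 740 (3.95%) had an unadjusted p under 0.05. DESeq2 called 35 genes (0.187%). Cxcl9 had the smallest p of all 18732 genes, with a difference of -4.76 (SE 0.824, unadjusted p 6.08e-05, Benjamini-Hochberg p 0.654 by edgeR). Ccl5 (-2.38, SE 0.548) was 18th in order of p, Cxcl10 (-2.48, SE 0.603) 25th and Ccl12 (-1.88, SE 0.542) 113th. DESeq2 called Cxcl9, Ccl5 and Cxcl10, with adjusted p-values of 5.75e-05, 0.0271 and 0.0293. With no filter edgeR called Cxcl9 alone of all genes (0.00316%, adjusted p 0.0452, Benjamini-Hochberg), and over the 15 fits that left out 1 animal its adjusted edgeR p ran from 0.0981 to 1 (Benjamini-Hochberg). Ccl2 (-0.43), Cxcl16 (-0.64), Cxcr4 (-0.26), Cxcl12 (0.15) and Cx3cl1 (0.00) were nearer to 0. These values do not show that deletion and antibody act alike on the 5 genes.

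In forebrain 2 of 19724 genes passed that test (0.0101%), none of them a member. Cxcl10 had a difference of -2.03 (SE 0.773, unadjusted edgeR p 0.0174) and Ccl12 of -1.99 (SE 0.830, unadjusted edgeR p 0.0282), both at an adjusted p of 1.00 when rounded. At an unadjusted p under 0.05 those were the only 2 of 6 members, beside 3.07% of all genes, and DESeq2 called 0 members and 0.142% of all genes. Each effect was taken against the controls of its own experiment, and these differed: summed choroid plexus markers ran from 1622 to 3861 CPM in Het isolates and from 5.37 to 8.70 CPM in anti-gp120 isolates. The part of this in the differences was not tested.

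Differences of an effect between the tissues were tested as an interaction. For the genotype, 599 of 20107 genes passed (2.98%) and 0 of the 9 members with edgeR (0 at an unadjusted p under 0.05) and with DESeq2, and a replicate block for the animal left 0 genes. Of all genes 31.0% had an unadjusted edgeR p under 0.05 and DESeq2 called 18.1%. Cxcl9, Ccl5 and Ccl2 had 0 to 4 counts in each forebrain library of that experiment, so no size of this difference is given for them. For the antibody, 17 of 18399 genes passed (0.0924%) and 0 members with edgeR (1 at an unadjusted p under 0.05) and with DESeq2, and with the block again 0 genes. Of all genes 21.1% had an unadjusted edgeR p under 0.05 and DESeq2 called 5.94%. Cx3cl1 had the smallest p of the members, with an effect 0.60 higher in isolates than in forebrain (SE 0.224, Benjamini-Hochberg p 0.204 by edgeR). Cxcl10 had -0.68 (SE 0.596, Benjamini-Hochberg p 0.497 by edgeR), so its response in forebrain and in isolates was not shown to differ. With edgeR, Ifngr1 was the only gene of the pathway lists to pass in either test, with a genotype effect lower in isolates by 0.99 (SE 0.176, Benjamini-Hochberg p 0.0205 by edgeR). These fits held no term for the animal, and with the block Ifngr1 did not pass, as 0 genes did.

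The 2 libraries of an animal were also set side by side. Among the 4 anti-IL34 animals Cxcl10 had the same order in forebrain and isolate, with animal 2 first (5.07 and 118 CPM), then 24 (3.03 and 105 CPM), 11 (1.504 and 59.9 CPM) and 10 (1.47 and 49.9 CPM). Ccl12 had that order of animals in both tissues as well. Ccl5 kept animal 10 last in both, at 0 counts in forebrain and 3.87 CPM in the isolate, and exchanged animals 2 and 24. The other 7 members had different orders in the 2 tissues of this arm: for Ccl2, animal 10 was first in forebrain (0.142 CPM) and last in isolates (21.7 CPM). In the other arms the order was the same for Cxcl9 in Het, at 1 count in each forebrain library, for 0 of 9 members in anti-gp120 and for Cxcl12 in KO, and Cxcl10 and Ccl12 had different orders in all 3. With 3 or 4 animals an arm this is a description.

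**Figure D5:**
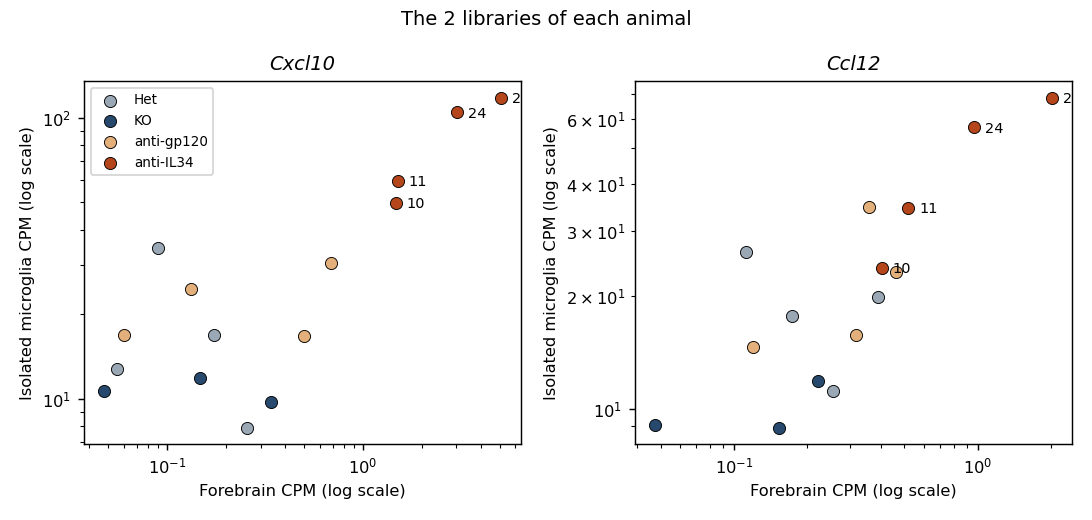
CPM in the forebrain library (x axis, log scale) against CPM in the isolated library (y axis, log scale) of the same animal, for Cxcl10 and Ccl12; each point is 1 of 15 animals, coloured by arm, and the anti-IL34 animals carry their numbers. In both panels animals 2 and 24 lie at the upper right, at 118 and 105 CPM for Cxcl10 in the isolates, and in the Cxcl10 panel all 4 anti-IL34 animals lie apart from the other 11.

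Finally, the genes whose levels followed each member most closely over the 15 libraries of a tissue were listed by Spearman's rho of log2 CPM, as a description, for each member with a median of at least 1 CPM in 1 or more arms. All of these libraries share arms, depth and cell make-up, which such values carry. Cxcl9 in isolates, and Cxcl10 and Cxcl16 in forebrain, reached a median of 1 CPM in the anti-IL34 arm alone. In isolates Cxcl10 was followed by H2-D1 (0.957), Ogfr (0.950) and Ifi207 (0.946), Ccl12 by Ifih1 (0.979), Pml (0.975) and Fcgr4 (0.971), and Ccl5 by Oasl1 (0.939), Cd69 (0.9) and Trem4 (0.896). Cxcl9 was followed by Mthfd2 (0.911), Gm28496 (0.871) and Tent4a (0.868). Ccl2 was followed by Clec4a3 (0.957), Il13ra1 (0.946) and Capza2 (0.943), Cxcl16 by Igsf6 (0.982), P2rx4 (0.979) and Cdkn1a (0.975), and Cxcr4 by Rtcb (0.954), Tgif1 (0.929) and Casp1 (0.921). Cx3cl1 was followed by Cygb (0.993), C1qtnf4 (0.986) and Gstk1 (0.982), and Cxcl12 by Spock2 (0.914), Tecrl (0.904) and Gm20383 (0.882). In forebrain Cxcl10 was followed by Gm10638 (0.943), Slfn9 (0.889) and Oas1c (0.875), and Cxcl16 by Dlgap1 (0.954), Prtg (0.929) and Gm12905 (0.925). Cx3cl1 was followed there by Erf (0.954), Pld3 (0.932) and Dmtn (0.918), Cxcl12 by Gucy2f (0.871), Evc2 (0.868) and Gm8518 (0.864), and Cxcr4 by Dbi (0.925), Sharpin (0.925) and Pou2af2 (0.918).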

How the data were processed

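RNA of 30 libraries was analysed from read counts per gene that the authors deposited without normalization. The submitters' processing notes name STAR 2.7.5c, featureCounts 1.6.3, R 4.4.0 and the build GRCm38, with no roles. The strand setting is not given in the sources used here. The TPM values deposited by the authors carry lengths that equal the gene span for 51183 of 51498 matched genes, so introns count as length. In the count and TPM data 6 columns each match no labelled sample and were not used.

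Groups and sex came from the labels. Each contrast was tested with edgeR 4.0.16 in R 4.3.3 (quasi-likelihood F test, TMM, filterByExpr, sex as a covariate), with Benjamini-Hochberg adjustment over all genes tested and a threshold of 0.05. The method was tested on simulated counts. Alternatives were DESeq2 1.42.0, RLE scaling, no filter, no sex terms, 1 fit over the 15 libraries of a tissue, an animal block and each animal left out in turn.

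Forebrain and isolate of 1 number and arm came from the same animal, so the numbers pair the tissues. The main fits across tissues did not use this pairing, and the animal block was an alternative. Their deviations correlated at a median of 0.156 (0.0613 to 0.240) over 17778 genes, above 0.1 in 12 of 15 animals. All members were named, with up to 5 genes per list of smallest p and the known receptors. Some genes of the lists are not reported here. The members and lists were chosen with earlier results of these data known. Intervals and floors of 3 counts cover counting error only.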

Additional observations from a re-analysis of the deposited data

Results flagged for a closer look

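In 54 sets of 4 libraries (a gene in 1 arm of 1 tissue), 4 held a library whose gap to the nearest other, divided by the range, was above Dixon's 95% critical value, and chance flags about 1 in 20. All 4 were in forebrain of the antibody experiment. Cxcl9 was at 0.111 CPM in anti-gp120 animal 7, from 6 counts, and at 0.520 CPM in anti-IL34 animal 2, from 8 counts. Ccl5 was at 0.0265 CPM in anti-gp120 animal 1, from 2 counts where the other 3 libraries had 0. The rate of 1 in 20 is that of continuous, normally spread values, so it does not hold for these Cxcl9 and Ccl5 sets of few counts. Cxcr4 was at 3.31 CPM in anti-IL34 animal 2, with the other 3 between 1.29 and 1.52 CPM.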

How the results depend on the processing

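Counts of genes past the threshold moved far more than the members' fold changes. With the settings other than leaving out an animal, 308 of the members' recomputed fold changes kept their side and direction, 18 members' values passed where they had not, and 3 changed sign, all of Cx3cl1 in the genotype minus antibody contrast of isolates (0.00097 in the test as reported, -0.0031 with DESeq2, -0.0027 with RLE, -0.0025 with no filter). All 72 group means moved by less than 1 SD without TMM.
For members, genotype in isolates gave 2 with DESeq2, 2 with no filter and 1 with 15 libraries. Antibody in isolates gave 4 with DESeq2 and 3 each with no filter, no sex terms and 15 libraries, and antibody in forebrain gave 2 with no filter. Genotype minus antibody in isolates gave 3 with DESeq2 and 1 with no filter.
For all genes, DESeq2 gave 3887 for genotype in isolates, 198 for antibody in forebrain, 2015 for antibody in isolates, 3635 and 1092 for the tissue differences of genotype and antibody, and 28 and 35 for genotype minus antibody in forebrain and isolates. No filter gave 381 (genotype, forebrain), 1993, 349 (antibody, forebrain), 819, 1569, 1352, 114 and 1 in turn. No sex terms gave 2189 (genotype) and 983 (antibody) in isolates, 2400 and 222 for the tissue differences and 4 for genotype minus antibody in forebrain. The fits over 15 libraries gave 2734, 204 and 988 for genotype in isolates, antibody in forebrain and antibody in isolates, and RLE gave 48 for the tissue difference of the antibody. The cause was not tested.
A replicate block for the animal left 0 genes in either tissue difference, and 8 members and 16529 genes passed between tissues; the block changed no call of a member.
With 1 animal left out, all genes and members ran from 55 to 117 and 0 to 0 (genotype, forebrain), 0 to 5756 and 0 to 4 (genotype, isolates), 25 to 126 and 0 to 1 (antibody, forebrain), 0 to 6905 and 0 to 4 (antibody, isolates), 16202 to 17112 and 8 to 9 (tissue), 0 to 5688 and 0 to 1 and 0 to 5565 and 0 to 1 (tissue differences of genotype and antibody), 2 to 33 and 0 to 0, and 0 to 5 and 0 to 0 (genotype minus antibody, forebrain and isolates). The 1 member called in the tissue differences was Ccl2 without Het animal 1 and Cx3cl1 without anti-gp120 animal 15. Signs changed in 29 such values, with log2 ranges for genotype in forebrain of -0.0031 to 0.133 (Cx3cl1), -0.258 to 0.0083 (Cxcr4) and -0.0796 to 0.0132 (Cxcl12). For the antibody they were -0.107 to 0.197 (Cxcl16) and -0.0948 to 0.0546 (Cx3cl1) in forebrain and -0.196 to 0.0758 (Cxcr4) in isolates. For the tissue differences they were -1.05 to 1.47 (Ccl5), -0.710 to 0.0930 (Ccl12) and -0.421 to 0.0802 (Cxcr4) for genotype and -0.926 to 1.93 (Cxcl9) for antibody. For genotype minus antibody in isolates they were -0.166 to 0.189 (Cx3cl1) and -0.101 to 0.538 (Cxcl12).
Depth limits Cxcl9, Ccl5 and Ccl2 in forebrain, which had 0 to 8 counts per library.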
